A study of Mus musculus with 9 samples.

Results

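Klk8, Klk9, Klk10 and Klk11 are 4 neighbouring genes of the mouse kallikrein cluster on chromosome 7. They are described here in the endothelium of the thoracic aorta of mice with and without deletion of Mef2a, Mef2c and Mef2d. The 4 were chosen by their values in this same comparison, ACDiEKO against control, with Klk10 among the largest falls of the array, so their levels and differences are given as a description and were not tested. Each is the only transcript cluster (1 array value per gene) of its symbol, and they are 4 of 30142 named genes on the array and of 23 measured genes of the kallikrein cluster. ACDiEKO mice carried Cdh5-CreERT2(+) with Mef2a f/f, Mef2c f/f and Mef2d f/f. Control mice were littermates with the same 3 floxed genes and Cdh5-CreERT2(-). Every mouse was a female given tamoxifen from 10 weeks of age, once daily for 5 days, controls included. The Cdh5 promoter drives the tamoxifen-activated recombinase in endothelial cells. Controls lacked it, so an effect of the recombinase itself cannot be told apart from that of the deletion. Counted from the start of tamoxifen, aortas were taken at 7 days by the design text but at 14 days by the protocols of the samples, and this is not settled here. RNA was flushed from the lumen of single aortas, and 5 ng per aorta was hybridised to a whole-transcriptome array, 4 arrays for control and 5 for ACDiEKO.

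Kallikreins are secreted serine proteases made as inactive precursors, and their genes lie side by side in a single cluster. Those outside the Klk1 and Klk1b group are best known from skin, glands and brain, where they cut adhesion proteins, activate one another and signal through protease-activated receptors. KLK10 is also made by endothelial cells under steady laminar flow and has been reported to lower endothelial inflammation and permeability. KLK8, also called neuropsin, cuts adhesion molecules in brain and skin, KLK11 is a trypsin-like protease, and KLK9 is less studied. MEF2 factors bind an A/T-rich DNA motif, and in endothelium they act upstream of KLF2 and KLF4, the flow-responsive factors that bind CACCC-type motifs.

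The sequences just before the start of 3 of the 4 genes are shown because these genes differed together and the deleted factors bind DNA. They are RefSeq promoter windows of GRCm38.p6, all on the + strand, written 5′ to 3′ up to the base before the annotated gene. All 4 genes matched by symbol. Capitals mark matches to the MEF2 consensus or to CACCC on either strand (GGGTG is CACCC on the other strand). TATAAA was searched as well. The Klk10 sequence is chr7:43780804-43781053, that of Klk11 chr7:43774367-43774616 and that of Klk8 chr7:43797327-43797531.
Klk10: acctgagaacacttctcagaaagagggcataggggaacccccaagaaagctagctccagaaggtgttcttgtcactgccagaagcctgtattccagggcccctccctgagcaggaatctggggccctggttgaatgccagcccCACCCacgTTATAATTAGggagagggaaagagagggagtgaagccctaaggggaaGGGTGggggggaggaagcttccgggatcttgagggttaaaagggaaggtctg
Klk11: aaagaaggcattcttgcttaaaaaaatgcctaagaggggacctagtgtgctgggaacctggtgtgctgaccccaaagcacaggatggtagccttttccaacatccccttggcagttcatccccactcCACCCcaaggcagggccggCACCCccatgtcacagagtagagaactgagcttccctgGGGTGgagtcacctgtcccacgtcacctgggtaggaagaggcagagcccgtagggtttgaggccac
Klk8: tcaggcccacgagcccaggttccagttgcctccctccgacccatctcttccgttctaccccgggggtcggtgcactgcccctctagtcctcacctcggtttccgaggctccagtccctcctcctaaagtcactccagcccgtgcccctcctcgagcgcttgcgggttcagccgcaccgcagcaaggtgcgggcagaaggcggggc

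In the 250 bases before its start, Klk10 held 1 match to the MEF2 consensus, TTATAATTAG, which begins 99 bases before the start and matches on both strands. It also held CACCC 107 bases before the start and, on the other strand, 52 bases before it. None of these matches overlap. Klk11 held CACCC at 3 places, 123, 104 and 66 bases before the start, the nearest of them on the other strand. The Klk9 window lies inside the annotated gene and is not printed, and it held CACCC 169 and 129 bases before its start. No searched motif was found in the 250 bases of Klk8 or in a further Klk11 window that lies inside the gene, and TATAAA was found in none of these windows. Among 32851 such windows of 250 bases in mouse, 2.92% held the MEF2 consensus, 52.0% CACCC, 12.4% TATAAA and 0.95% both the MEF2 consensus and CACCC. A match is a description of letters and not of binding, which these arrays did not measure.

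ACDiEKO replicates 1 and 2 were nearly identical, with a robust SD of their difference over bright clusters of 0.0707, where the remaining 15 within-group pairs gave 0.268 to 0.401. They were averaged and counted as 1 sample, so means and fits rest on 4 control and 4 ACDiEKO samples, while values of all 9 arrays are shown. Values are the authors' log2 values and differences are ACDiEKO minus control in log2 units. They are not given as folds because the values reach 19.34, beyond the 16 log2 units of a 16-bit scanner, and the scaling behind this is not stated. The 23 background features of the array, which match no gene, ran from 2.83 to 7.52 depending on their GC content, with a median of 3.64. Genes were tested where at least 4 arrays exceeded 6.165, the median of the table. With limma and Benjamini-Hochberg adjustment at 0.05, 1203 of 16403 genes (7.33%) fell and 1463 (8.92%) rose, and the median difference of all tested genes was -0.03. Centring the arrays on their medians moved that median to 0.04 and gave 960 falls and 1851 rises, and quantile normalization gave 1038 and 1970. The total of 2666 calls became 1680 without ACDiEKO replicate 4. The 3 floxed genes were not lower in ACDiEKO (Mef2a 0.12, Mef2c 0.06, Mef2d 0.23, none past the test), and since each value covers the whole transcript, they do not check the deletion.

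The mean over 8 endothelial markers was 13.46 to 13.88 in control and 13.18 to 13.82 in ACDiEKO, but its members moved in both directions, with 2 that rose and 3 that fell (limma). Emcn rose by 3.72 and Kdr by 0.96, while Cldn5 fell by 3.59, Tek by 1.92 and Pecam1 by 0.37. Kdr was dim, at 6.58 to 7.63 in control and 7.68 to 8.22 in ACDiEKO, and the other 7 lay above 10 on every array. All 8 keratinocyte and squamous markers, from cells in which kallikreins are abundant, lay below 6.165 on every array, with means of 5.36 to 5.44 in control and 5.36 to 5.42 in ACDiEKO. The mean of 8 smooth muscle markers moved with genotype, from 8.47 to 9.50 in control to 9.67 to 10.33 in ACDiEKO (3 rose and 0 fell). Those 3 were Tagln (3.82), Acta2 (3.19) and Smtn (2.04). Mylk (0.43), Myh11 (-0.04), Myocd (-0.15) and Cnn1 (-0.27) did not pass, and Des was too dim to be tested. The part of smooth muscle in the results was not tested. Mesothelial means were 6.86 to 7.80 in control and 7.50 to 9.37 in ACDiEKO, and leukocyte means 6.23 to 6.79 and 6.50 to 8.35, each with 0 markers past the test. Brown fat means were 8.25 to 10.46 in control and 7.15 to 9.54 in ACDiEKO, also with 0 past it. The brown fat marker Ucp1 reached 15.71 in control and 13.33 in ACDiEKO. Adventitial fibroblast means were 8.84 to 9.26 and 8.35 to 9.27. Of these markers 0 rose and 1 fell, Pi16 (-2.41, limma adjusted p = 0.0086). Fewer cells of a type and less RNA per cell cannot be told apart in such samples.

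Klk10 had the largest difference of the 4 genes. In control its log2 values were 13.49, 12.93, 14.18 and 13.76 in replicates 1 to 4, and in ACDiEKO they were 7.42, 7.37, 10.27, 7.93 and 8.60 in replicates 1 to 5. Every ACDiEKO array lay below every control array, and the gap between the groups was 2.66. ACDiEKO replicate 3 stood highest in its group and the near-identical replicates 1 and 2 lowest, within the range of the background features. The means were 13.59 ± 0.52 and 8.55 ± 1.25 (SD, n = 4 and 4). The difference was -5.04 (standard error 0.68), at rank 3 of 16403 genes ordered from the largest fall.

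Klk8 was also bright in control, at 12.22, 11.84, 12.78 and 12.20. In ACDiEKO it was 9.15, 9.01, 9.76, 9.24 and 9.66. The groups did not overlap, with a gap of 2.08, and the range within ACDiEKO was 0.75, against 2.90 for Klk10. The means were 12.26 ± 0.39 and 9.43 ± 0.33 (SD, n = 4 and 4), a difference of -2.82 (standard error 0.25, rank 21).

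Klk11, on the other side of Klk10, was 9.86, 9.17, 10.18 and 10.24 in control and 6.99, 6.96, 7.95, 7.22 and 6.27 in ACDiEKO. The groups again stood apart, by 1.22, and here ACDiEKO replicate 5 was the lowest array and replicate 3 the highest. The means were 9.86 ± 0.49 and 7.10 ± 0.69 (SD, n = 4 and 4). The difference was -2.76 (standard error 0.43, rank 23). ACDiEKO replicates 1, 2, 4 and 5 lay within the range of the background features, so the size of this difference is not set against that of Klk8.

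Klk9 was the dimmest of the 4 and differed least. Its values were 6.70, 6.38, 6.77 and 6.89 in control and 5.96, 5.95, 6.02, 6.19 and 5.96 in ACDiEKO. The groups did not overlap, but the gap was only 0.19. Of its 9 arrays, 5 exceeded the filter value, namely all 4 controls and ACDiEKO replicate 4, so it passed the filter through the control group. The means were 6.68 ± 0.22 and 6.03 ± 0.11 (SD, n = 4 and 4), a difference of -0.65 (standard error 0.12, rank 977). Such values lie within the range of the background features, and what background adds to them was not tested. All 4 genes were lower in every ACDiEKO array than in any control array, a pattern shown by 10.4% of the genes tested, and nothing is read from it since the genes were chosen on this contrast.

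**Figure D1:**
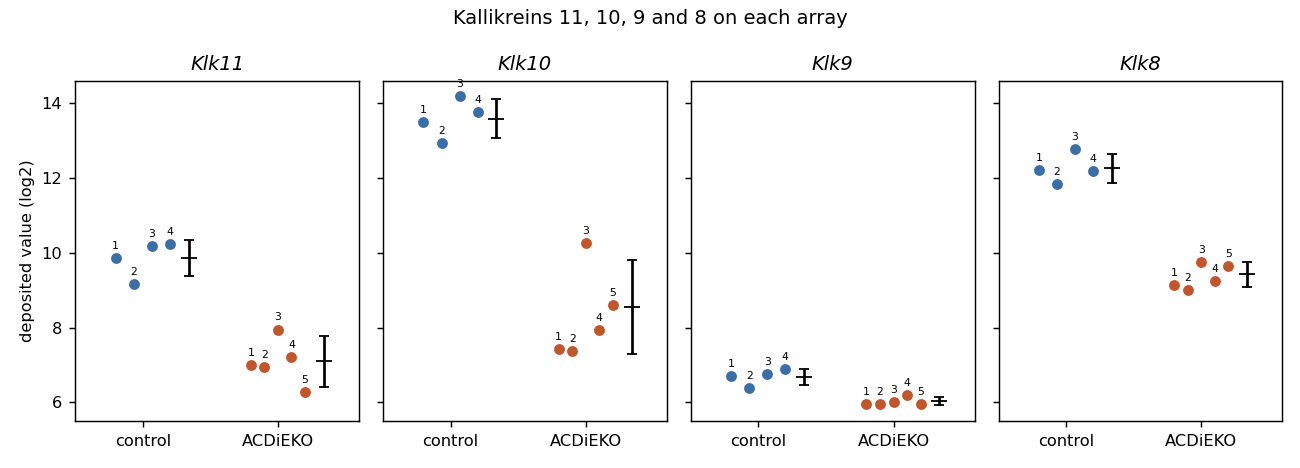
Deposited log2 values of Klk11, Klk10, Klk9 and Klk8 (panels in chromosomal order) on the 4 control (blue) and 5 ACDiEKO (orange) arrays, with replicate numbers beside the points. Black bars are means with SD over 4 and 4 samples (ACDiEKO replicates 1 and 2 averaged), and the ACDiEKO points lie below the control points in each panel, with the widest gap for Klk10 (2.66) and the narrowest for Klk9 (0.19).

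Within the groups the genes shared some of their variation. Control replicate 2 was the lowest control for each of the 4. It lay at -0.66 from the control mean for Klk10, -0.69 for Klk11, -0.42 for Klk8 and -0.30 for Klk9. Of the laminar flow genes given below, Klf2 (10.53), Nos3 (12.88) and Gch1 (10.56) were also lowest in it, while Klf4 (12.77) was highest. A low control replicate 2 is therefore not particular to Klk8, Klk9, Klk10 and Klk11. That array also had the lowest endothelial marker mean of the controls (13.46). Its brown fat mean was the highest (10.46, with control replicate 4 at 10.39). The part of tissue make-up in these levels was not tested. In ACDiEKO, Klk10 and Klk8 ordered the 5 arrays in the same way, from replicate 2 at the bottom through 1, 4 and 5 to 3 at the top. Klf2, outside the cluster, had the same order (6.37, 6.76, 6.79, 7.93 and 8.13), so it is not particular to these genes. Replicates 1 and 2 count as 1 sample, and nothing is read from their order. Klk11 departed from that order at replicate 5, which was 0.83 below its group mean while Klk10 was 0.05 above its own. Replicate 5 also had the highest leukocyte marker mean of the 9 arrays (8.35) and a mesothelial mean of 9.19. Their part in this was not tested. Klk9 varied little in ACDiEKO and was highest in replicate 4. With 4 samples a group, no correlation was computed.

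The animal numbers in the titles put control replicates 3 and 4 apart from the other 7 arrays, which are numbered in 1 run. The controls of the run were lower than those apart for all 4 genes. Klk10 averaged 13.21 in the 2 controls of the run and 13.97 in the 2 apart, and Klk8 12.03 and 12.49. For Klk11 the averages were 9.51 and 10.21, and for Klk9 6.54 and 6.83. Within the run, the difference from ACDiEKO was -4.66 for Klk10, -2.59 for Klk8, -2.41 for Klk11 and -0.50 for Klk9.

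The 17 alternatives were rescaled values, a cluster mean, other treatments of the near-identical arrays, the numbers in the titles and each array left out. Under them no difference changed sign or moved by more than 1 SD of the replicates. Some could not or could hardly move a difference. Each gene has 1 cluster, and without either near-identical array the other remains. A term for the animal-number run and leaving out control replicates 3 and 4 both repeat the differences within the run. Klk10 ranged from -5.61 (without ACDiEKO replicate 3, the array with the highest level) to -4.65 (without both near-identical arrays). Klk11 ranged from -3.04 to -2.41, Klk8 from -2.96 to -2.59 and Klk9 from -0.75 to -0.50.

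**Figure D2:**
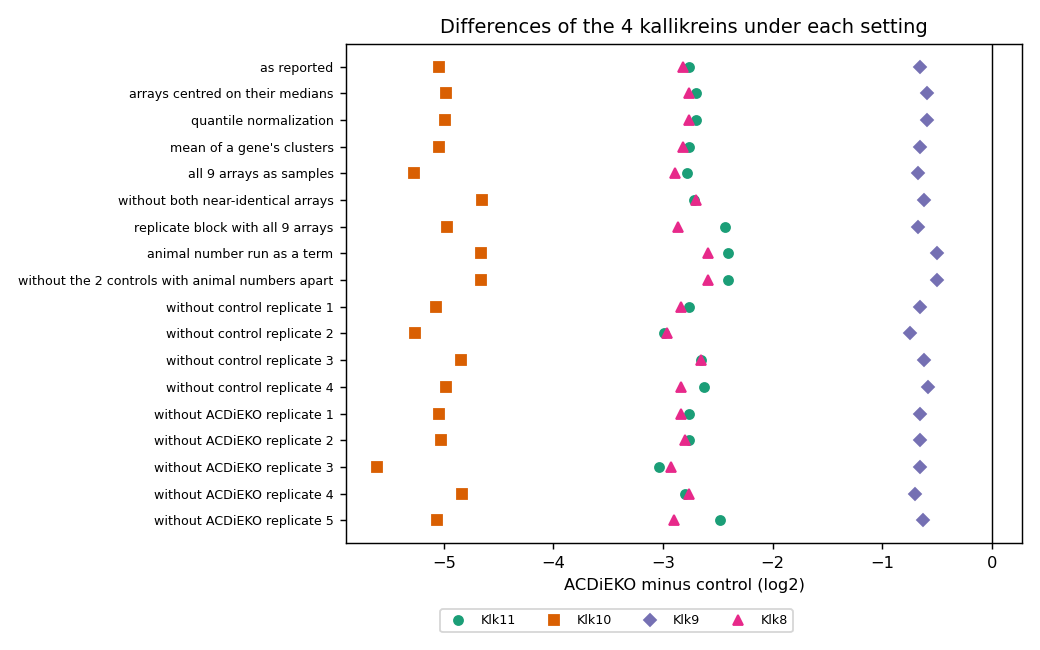
ACDiEKO minus control in log2 units (horizontal axis) for Klk11, Klk10, Klk9 and Klk8 as reported and under each alternative (vertical axis). Klk10 stays between -5.61 and -4.65, Klk11 and Klk8 lie between -3.04 and -2.41, and Klk9 lies nearest to 0.

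The genes around these 4 were followed in chromosomal order to see how far the difference extends. Outward from Klk11 lie Klk12, Klk13 and Klk14 and then Ctu1, a tRNA-modifying enzyme; outward from Klk8 lie Klk7, Klk6, Klk5, Klk4 and Klk15, followed by the Klk1b genes. The 8 kallikreins of this list that are outside the Klk1 and Klk1b group were all too dim to be tested, with control means from 4.86 (Klk14) to 6.19 (Klk15). Klk12, next to Klk11, averaged 5.84 ± 0.02 in the 4 control samples and 5.78 ± 0.05 (SD) in the 4 of ACDiEKO. In a limma fit of all 30142 genes with no filter on dim genes, 2 of the 8 fell and 0 rose (0 higher and 3 lower at an unadjusted p under 0.05), beside 2.92% of all genes called lower in that fit. The median difference of the 8 was -0.08, beside -0.03 for all genes.

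The 2 were Klk7, the chymotrypsin-like skin protease next to Klk8, and Klk13. Klk7 was 6.21, 6.15, 5.90 and 5.93 in control and 5.62, 5.61, 5.62, 5.67 and 5.73 in ACDiEKO, a difference of -0.39 (adjusted p = 0.0315). Klk13 was 6.04, 5.94, 6.27 and 5.97 in control and 5.49, 5.53, 5.81, 5.59 and 5.64 in ACDiEKO, a difference of -0.41 (adjusted p = 0.0438). Neither overlapped between the groups, and both lay within the range of the background features. Klk12, Klk14, Klk6, Klk5, Klk4 and Klk15 differed by -0.17 to -0.03 and did not pass. Klk12 lies between Klk11 and Klk13, and it did not pass.

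Of the 20 nearest protein-coding genes, 10 on each side, 10 were bright enough to test, and 5 fell while 0 rose (limma; 0 higher and 5 lower at an unadjusted p under 0.05), with a median difference of -0.78. Over all tested genes 7.33% fell and the median was -0.03. All 5 that fell were Klk1b genes, relatives of Klk1 whose sequences were not compared here, so their single values are uncertain. They were Klk1b21 (-5.92), Klk1b11 (-2.43), Klk1b9 (-2.19), Klk1b1 (-2.17) and Klk1b8 (-1.44). Their ACDiEKO values, from 5.36 to 7.26, all lay within the range of the background features, so the sizes of these falls have no order. Each exceeded the filter value in all 4 controls, which was enough to pass the filter, so nothing is read from their count. Klk1b1 and Klk1b21 exceeded it on 6 of the 9 arrays and Klk1b11 on 7. With control replicates 3 and 4 both left out, 1 of the 5 was called. The call of Klk1b8 (adjusted p = 0.0274) ended under 11 of 20 alternatives, with adjusted p from 0.00248 to 0.172, among them leaving out control replicate 2, 3 or 4 or ACDiEKO replicate 3, 4 or 5. On the Ctu1 side, Ctu1 (-0.08), Zfp819 (0.05), Zfp719 (-0.12), Zfp658 (-0.11) and Cd33 (0.21) did not pass. In the limma fit with no filter on dim genes, 6 of the 20 fell and 0 rose (0 higher and 8 lower at an unadjusted p under 0.05). Their median was -0.11, beside -0.03 for all genes, of which 2.92% were called lower in that fit.

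**Figure D3:**
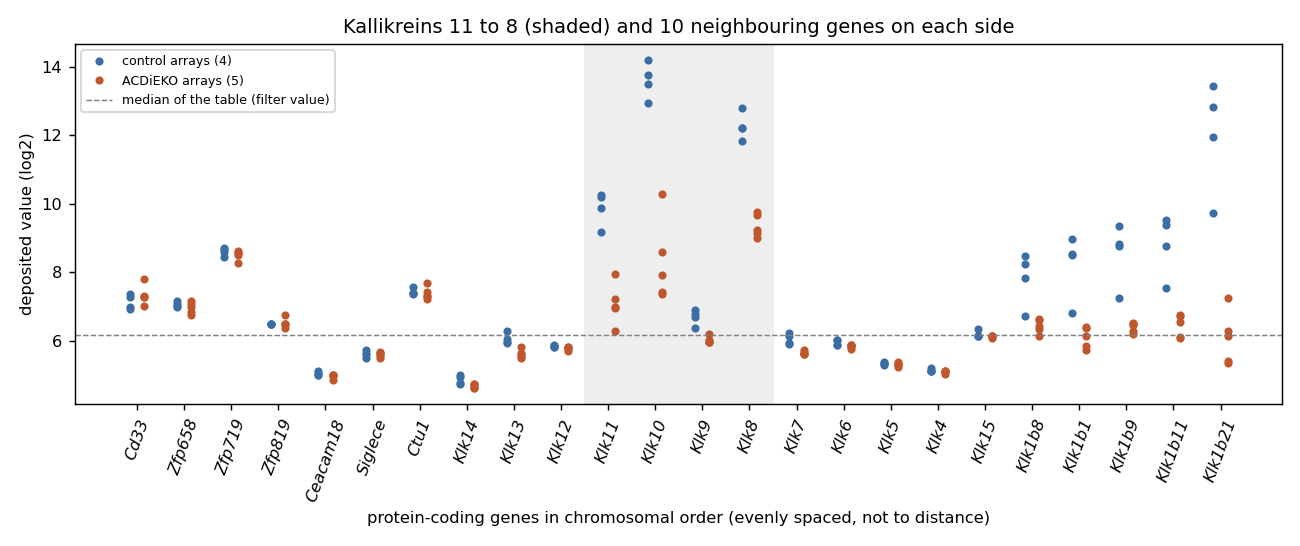
Deposited log2 values of 24 protein-coding genes in chromosomal order, evenly spaced, on 4 control (blue) and 5 ACDiEKO (orange) arrays, with Klk11 to Klk8 shaded and the filter value dashed. Klk11, Klk10 and Klk8 stand above a floor of dim kallikreins on either side (control means 4.86 to 6.19), and the Klk1b genes at the right differ again.

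Klk1, the tissue kallikrein at the far end of the cluster, fell by 4.74 (adjusted p = 0.00110), from 12.94 ± 0.84 to 8.20 ± 0.81 (SD, n = 4 and 4). Its lowest control was replicate 1, at -1.09 from the mean, whereas the lowest control of the 4 genes above was replicate 2, in which Klk1 was 0.47 above its mean. In ACDiEKO, Klk1 was highest in replicate 3 (9.37), as were Klk10, Klk8 and Klk11.

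Profiles like that of Klk10 were sought over the 8 samples among the 16403 tested genes by the root mean square difference of mean-centred log2 values. That measure is led by the difference between the groups, on which Klk10 was chosen. The 5 likest genes were Klk1 (0.64), the proline-rich transmembrane gene Prrt4 (0.64), Klf4 (0.66), Pkhd1l1, a large membrane protein (0.73), and the endothelial tight junction gene Cldn5 (0.83), against a median of 2.65 over all genes. Klf2 followed at rank 6 (0.90), Klk8 at rank 19 (1.26), Klk11 at rank 26 (1.31) and Klk9 at rank 899 (2.34). Klf4 had a control mean of 12.67 ± 0.11 and an ACDiEKO mean of 8.58 ± 1.07 (SD, n = 4 and 4). Klk10 and Klf4 both spread more widely in ACDiEKO than in control, with Klk10 at 1.25 against 0.52 (SD).

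**Figure D4:**
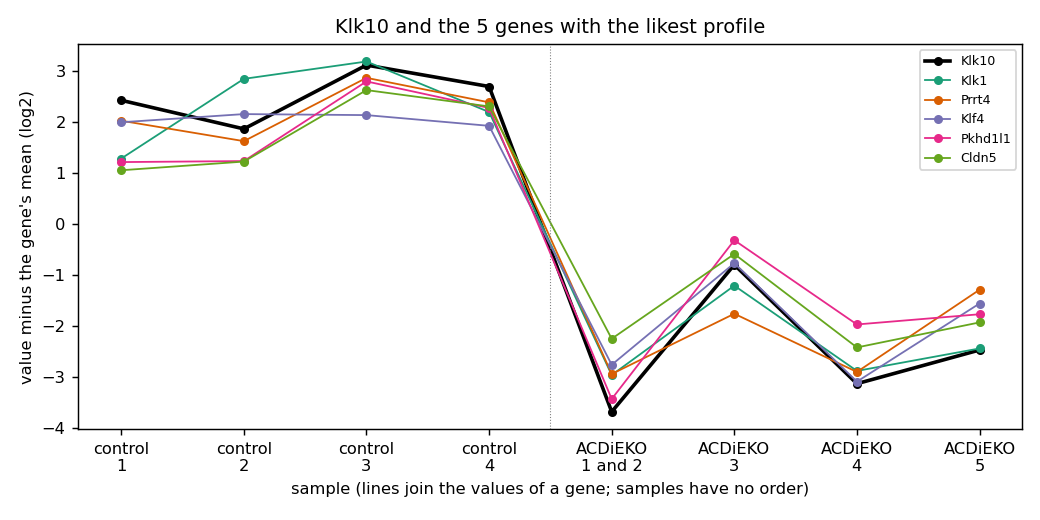
Log2 value minus the gene's own mean for Klk10 (black) and the 5 genes with the likest profile, in the 4 control and 4 ACDiEKO samples (replicates 1 and 2 averaged). Lines only join the values of a gene, and of the ACDiEKO samples replicate 3 is the highest for Klk10, Klk1, Klf4, Pkhd1l1 and Cldn5, while Prrt4 is highest in replicate 5.

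The laminar flow list gathers genes that endothelial cells raise under steady flow, the setting in which KLK10 is known, and was drawn up with earlier results of these data known. Of 14 listed, 13 were measured and 12 tested. In limma 8 fell while 0 rose (0 higher and 9 lower at an unadjusted p under 0.05), beside 7.33% of all tested genes that fell. The median difference was -1.29 beside -0.03 for all tested genes. The factors Klf4 (-4.09, adjusted p = 0.00152) and Klf2 (-3.55, adjusted p = 0.00104) fell most, and Klf2 went from 10.90 ± 0.32 to 7.35 ± 0.79 (SD, n = 4 and 4), with ACDiEKO replicates 1, 2 and 4 within the range of the background features. The nitric oxide synthase Nos3 and Gch1, which makes its cofactor, each fell by 2.25, the lipid phosphatase Plpp3 fell by 1.67 and the prostaglandin transporter Slco2a1 fell by 1.44. The metalloproteinase inhibitor Timp3 (-1.14, adjusted p = 0.0212) and the oxidase Cyp1b1 (-0.65, adjusted p = 0.0288) were called less firmly. The call of Timp3 ended without control replicate 2, 3 or 4 or ACDiEKO replicate 4, among 8 of 21 alternatives (adjusted p from 0.0127 to 0.151). That of Cyp1b1 ended without control replicate 2 or ACDiEKO replicate 3 or 4, among 5 of 21 (0.00909 to 0.0717). Thrombomodulin (Thbd, -0.07), the connexin Gja4 (-0.20), Nqo1 (-0.62) and its regulator Nfe2l2 (0.13) did not pass, so part of this list did not fall with Klk10.

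The genes through which kallikreins act or are held in check were mostly dim. Of 4 protease-activated receptors, 3 were measured and 1 was tested. The thrombin receptor F2r, at 9.54 ± 0.28 and 9.93 ± 0.32 (SD, n = 4 and 4), did not pass (0.40, adjusted p = 0.190). F2rl2 (control mean 5.72) and F2rl3 (5.69) lay under the filter value, and F2rl1 was not analysed here. Of 9 inhibitors of kallikreins and related proteases, 7 were measured and 1 tested. The intracellular serpin Serpinb6a differed by -0.23 and did not pass (adjusted p = 0.0708; over alternatives 0.0300 to 0.262). It passed with all 9 arrays as samples and without control replicate 2 (0.0434). Spink5, the inhibitor of kallikreins in skin, was at 5.46 in control and 5.44 in ACDiEKO. In these 2 lists 0 genes passed limma, with 1 lower and 0 higher at an unadjusted p under 0.05, and with no filter on dim genes 0 of 10 passed as well.

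All 3 measured genes of proteins that KLK8 is known to cut passed the test, in both directions (2 rose and 1 fell, median 0.46). Over all tested genes 8.92% rose and 7.33% fell, with a median of -0.03. This list too was drawn up with earlier results of these data known, so nothing is read from the count. Nrg1, the growth factor neuregulin-1, was 6.59, 6.19, 6.13 and 6.24 in control and 9.58, 9.51, 9.36, 8.77 and 8.94 in ACDiEKO. It rose by 2.86 in its brighter cluster (adjusted p = 0.000298), and by 1.46 where its 2 clusters were averaged, so the dimmer cluster differed far less. The control values of the brighter cluster lay within the range of the background features. The adhesion molecule L1cam was 9.61, 9.20, 10.06 and 9.92 in control and 8.17, 8.10, 8.29, 8.10 and 8.33 in ACDiEKO, and fell by 1.48 (adjusted p = 0.00186). Fibronectin (Fn1) rose from 16.64 ± 0.17 to 17.10 ± 0.05 (SD, n = 4 and 4; 0.46, adjusted p = 0.0129), and its call ended when the model allowed for the animal-number run (adjusted p = 0.0669; over alternatives 0.00387 to 0.0669). These values are transcript levels, and no protein or its cleavage was measured.

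**Figure D5:**
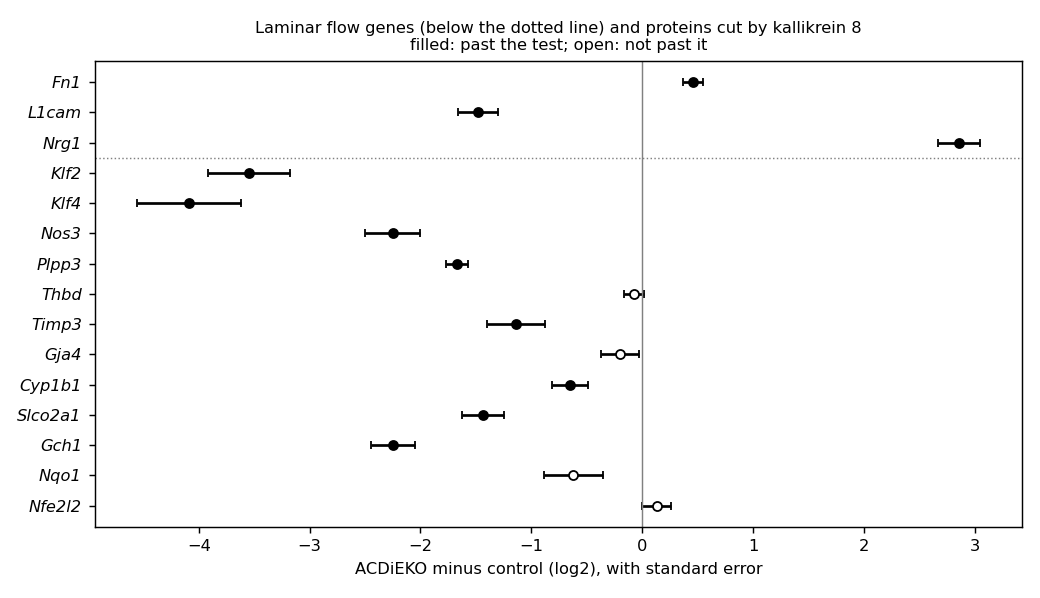
ACDiEKO minus control in log2 units (horizontal axis) with the limma standard error for 3 genes of proteins cut by KLK8 (top) and 12 laminar flow genes (below the dotted line), over 4 control and 4 ACDiEKO samples. Filled points passed the test and open points did not, and 8 of the 12 flow genes are filled, all to the left of 0.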

How the data were processed

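The deposited values are log2 values per transcript cluster that the authors made with RMA (background correction, normalization and summary of probes; per the submitters' processing notes, version not given). The array annotation is the platform's table of names, and the build behind it is not given in the sources used here. Of 72688 features, 6732 array controls were left out. Of 65956 clusters, 30604 had 1 symbol, 2146 several and 33206 none listed; 827 symbols were updated through gene IDs to the GRCm38 RefSeq table, which also gave gene order. The brightest cluster per symbol was kept. The test was limma's (3.58.1, R 4.3.3; lmFit, eBayes), two-sided, adjusted over all 16403 genes tested, after the code was tested on simulated data. For arrays, their number limits the precision.

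Where 2 control titles shared the number 3, the second was called replicate 4. The members and lists were chosen with earlier results of these data known. The text names the 4 members, list and neighbouring genes past the threshold, those with the smallest p in lists where none passed, the 5 likest profiles and 6 genes fixed by name. Alternatives were scaling, cluster summary, filter, near-identical arrays, replicate block, animal numbers, array weights, variance model and each array left out. Protein sequences were not used here. Figures were drawn with matplotlib 3.10.9.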

Additional observations from a re-analysis of the deposited data

Results flagged for a closer look

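Among the named genes and their neighbours, 70 groups of 4 samples were examined for a sample far from the others, and 2 were found, where chance gives about 5% of groups. Neither was among Klk8, Klk9, Klk10 and Klk11. Ctu1, the nearest gene beyond the kallikreins on the Klk14 side, stood at 7.58 in control replicate 2, against 7.35 to 7.39 in the other controls. Nqo1, of the laminar flow list, stood at 6.45 in ACDiEKO replicate 5, against 7.01 to 7.12 in the others.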

How the results depend on the processing

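The count of genes called (2666) was 1692 with a term for the animal-number run and 1127 without control replicates 3 and 4, whose numbers lie apart, and 1680 to 2701 with each array left out. The 5 neighbours that fell became 3 with that term, 1 without those controls and 1 under a stricter filter, where fewer genes were tested. Leaving out each array gave 4 to 5. Of the proteins cut by KLK8, 1 rose with that term in place of 2. Among other kallikreins, 2 fell with no filter on dim genes in place of 0, because 0 were tested otherwise. Among inhibitors, 1 fell with all 9 arrays as samples, and 0 to 1 with each array left out (1 without control replicate 2). The cause of the other changes was not tested. Apart from the replicate block, given next, the other alternatives kept these counts within 1.5 times their value. Mef2d passed after quantile normalization (0.30, adjusted p = 0.0366).

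Correlations across genes of the deviations of arrays with the same title number were -0.0049, -0.145, 0.0353 and 0.0413. Differently numbered arrays were not compared, so whether the numbers in the titles pair the arrays is not settled here. With the replicate block and all 9 arrays, 2351 genes were called, 3 neighbours fell and 1 of the proteins cut by KLK8 rose. Klk10 then differed by -4.97, Klk8 by -2.86, Klk11 by -2.43 and Klk9 by -0.67.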
